A study of Mus musculus with 9 samples.

Results

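Brain region and rhombomere identity factors are represented here by 7 transcription factor genes, Otx1, Otx2, En2, Gbx2, Egr2, Cdx1 and Cdx2, which mark successive levels of the neural tube from forebrain to spinal cord. They were chosen by their exact symbols, and all 7 were found among the 38197 gene symbols of the count and FPKM (fragments of a transcript scaled to its length and to the mapped reads of the library) tables. Of the 7, 4 had enough counts to be tested for change (En2, Gbx2, Egr2 and Cdx2), while Otx1, Otx2 and Cdx1 did not pass the filter on low counts.

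RNA was sequenced from neural stem cells (NSCs) of the ventral hindbrain that express Nkx2.2, made in monolayer from wild-type mouse embryonic stem cells (ESCs, line E14.1, strain 129). All cultures received retinoic acid (RA) and SAG, an agonist of the Shh transducer Smo, from 0 to 3 days in differentiation conditions (DDC) by the labels, while the study's methods place the change to plain medium at 3.5 days, and cells carrying the surface protein prominin-1 were isolated with magnetic beads. Polyadenylated RNA was sequenced at 4.5DDC, 5.5DDC and 6.5DDC (4, 5 and 6 days in the source names of the libraries), with 3 libraries per time point numbered as replicates 1 to 3. The libraries held between 11066568 and 25506193 counts, and 3 counts corresponded to 0.118 to 0.271 in counts scaled to library size (CPM), the floor below which a level was not read. What libraries of 1 number shared is not stated, so p-values measure only the spread between these libraries, which may be technical. All cultures derive from a single ESC line.

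The neural tube is divided along its length by transcription factors whose territories meet at sharp borders. Otx proteins specify forebrain and midbrain, Gbx2 opposes Otx2 at the midbrain-hindbrain border, En2 acts on both sides of that border, Egr2 (also called Krox20) builds a pair of hindbrain segments, or rhombomeres, and Cdx proteins activate Hox genes in the tail end of the embryo. RA shifts neural cells towards hindbrain and anterior spinal cord character, while Shh signalling sets their ventral character.

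Libraries of replicate 1 stood apart from those of replicates 2 and 3. Across all genes, deviations from the time point mean correlated with r = 0.743 between replicate 1 at 4.5DDC and replicate 1 at 5.5DDC, against 0.386 and 0.452 for replicates 2 and 3 with their own number and 0.291 and 0.39 for replicates 2 and 3 with each other's. This is a description across genes, which are not independent replicates. For this reason each gene is given by time point and by replicate number, and the changes over time are also given for replicates 2 and 3 alone, a comparison chosen after seeing the data.

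In mean FPKM, Egr2 was the highest of the 7 genes at each time point, followed by En2. In mean CPM En2 was above Egr2 at each time point (4.23 against 2.87, 5.06 against 3.60 and 4.40 against 3.40 CPM), although their exonic lengths are close (3539 and 3398 bases), so the order of these 2 depends on the measure. At 4.5DDC the order in FPKM was Egr2, En2, Gbx2, Cdx2, Otx2, Otx1 and Cdx1, and of neighbours in this order, the 3 libraries of En2 all lay above the 3 libraries of Gbx2 while the libraries of every other pair overlapped. At 5.5DDC and 6.5DDC Cdx2 lay above Gbx2 in mean FPKM. Libraries of these 2 genes overlapped at 5.5DDC and were separate at 6.5DDC, where the libraries of Egr2 lay above those of En2 in FPKM and below them in CPM. At 5.5DDC the separate neighbours were En2 above Cdx2 and Gbx2 above Otx1. All these levels were low. Of the 14742 genes tested, 14.8% had a lower mean FPKM than Egr2, 9.02% than En2, 4.76% than Cdx2 and 3.49% than Gbx2.

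**Figure D1:**
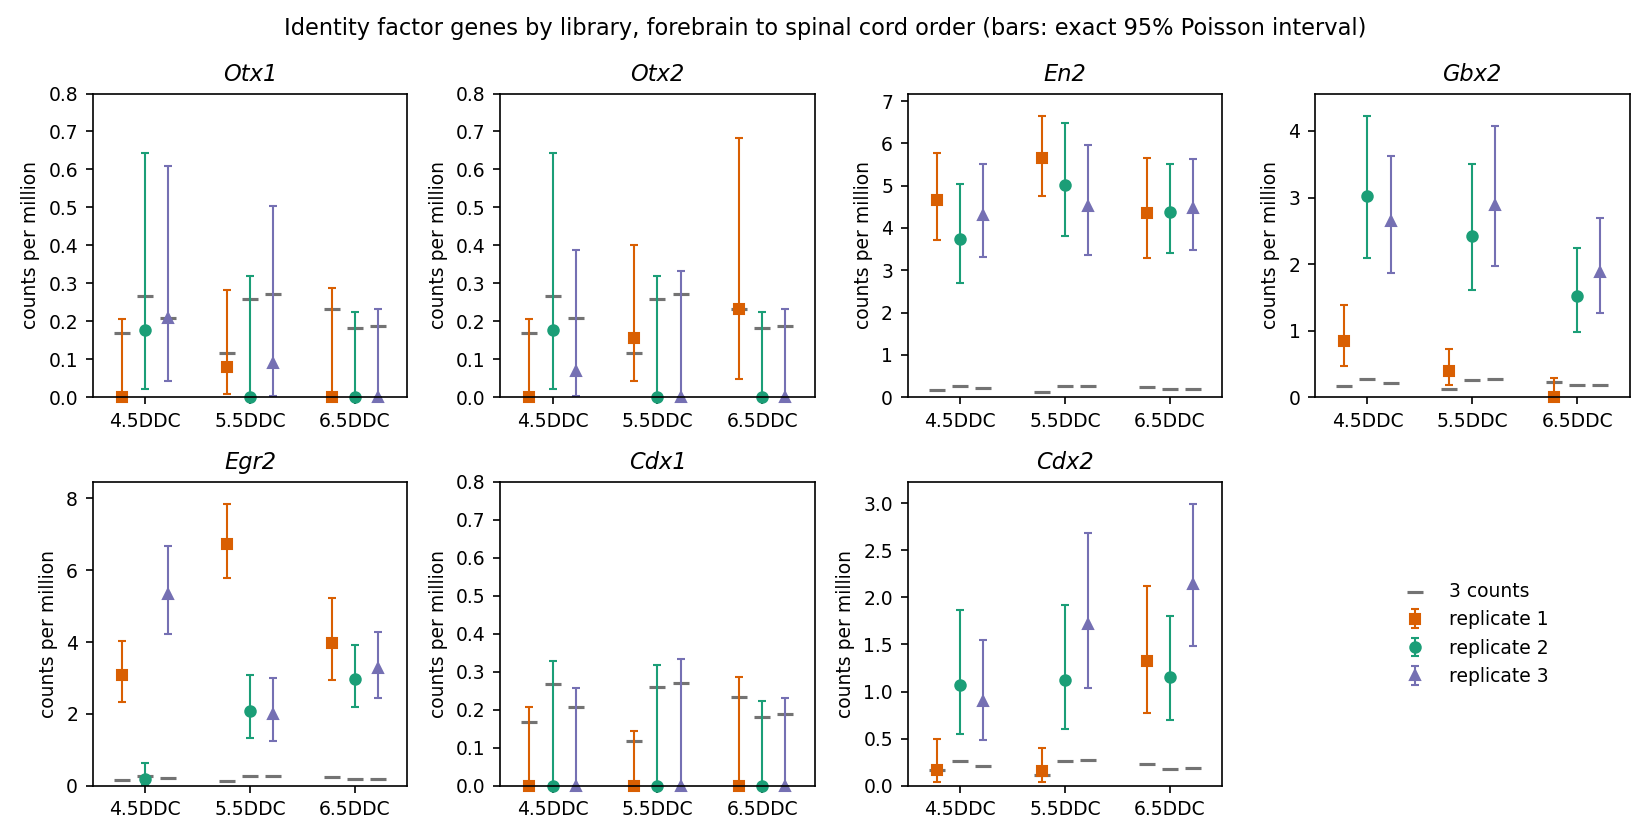
Level of each of the 7 genes in the 9 libraries, in CPM (vertical axis) by time point (horizontal axis), with exact 95% Poisson intervals as bars and a grey dash at the CPM of 3 counts. En2 lies between 3.73 and 5.65 CPM throughout, Gbx2 is lowest in replicate 1 at each time point, Egr2 ranges from 0.178 to 6.74 CPM, and Cdx1 has no count.

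Otx1, a homeodomain factor of forebrain and midbrain that is also used later in cortical neurons, lies on mouse chromosome 11 at chr11:21994764-22002897 (GRCm38, minus strand). It had counts of 0, 2 and 3 in replicates 1, 2 and 3 at 4.5DDC, 2, 0 and 1 at 5.5DDC, and 0 in all 3 libraries at 6.5DDC. Only replicate 3 at 4.5DDC reached 3 counts, so Otx1 was at or below the floor in all 9 libraries. In FPKM all 3 libraries at 6.5DDC lay below all 3 at 5.5DDC (0.000767 ± 0.00133 against 0.0267 ± 0.0246, SD, n = 3; two-sided exact permutation p = 0.1, the smallest that 3 libraries against 3 allow). These FPKM values rest on at most 2 counts in a library and show no difference that this depth could resolve. Intervals and floors given here cover counting error only.

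Otx2, the homeodomain factor required for forebrain and midbrain and a marker of early epiblast, lies at chr14:48657677-48673819 (GRCm38, minus strand). Its counts were 0, 2 and 1 in replicates 1, 2 and 3 at 4.5DDC, 4, 0 and 0 at 5.5DDC, and 3, 0 and 0 at 6.5DDC. Replicate 1 held all 7 counts of the later 2 time points and none at 4.5DDC, and only its libraries at 5.5DDC and 6.5DDC reached the floor of 3 counts. Mean FPKM was 0.104 ± 0.107 at 4.5DDC, 0.0190 ± 0.0329 at 5.5DDC and 0.0370 ± 0.0641 at 6.5DDC (SD, n = 3), and the time points overlapped. The highest single value, 0.214 FPKM in replicate 2 at 4.5DDC, came from 2 counts. Two-sided exact permutation tests between time points gave p = 0.4 for 4.5DDC to 5.5DDC (the first interval), 1.0 for 5.5DDC to 6.5DDC (the second) and 0.7 for the whole span, 4.5DDC to 6.5DDC. Of the exonic bases of Otx2, 3.65% are shared with the opposite-strand transcript Otx2os1 and 3.98% with Gm49154 on the same strand, and the strand setting of the counting is not given in the sources used here.

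En2, a homeodomain factor of the midbrain-hindbrain border and cerebellum, lies at chr5:28165694-28172166 (GRCm38, plus strand). At 4.5DDC it measured 0.729, 0.589 and 0.672 FPKM in replicates 1, 2 and 3, from 83, 42 and 62 counts. At 5.5DDC it measured 0.888, 0.793 and 0.716 FPKM, from 144, 58 and 50 counts. At 6.5DDC it measured 0.697, 0.683 and 0.702 FPKM, from 56, 72 and 71 counts. En2 was the steadiest of the 4 genes tested, with every library within a narrow band and the 6.5DDC libraries almost equal. The standard deviation (SD) of its log2 CPM over the 9 libraries was 0.15, and 5.41% of the genes tested had a lower one. Its 4.5DDC libraries overlapped those of both other time points, while its 3 libraries at 5.5DDC all lay above its 3 libraries at 6.5DDC (0.799 ± 0.0864 against 0.694 ± 0.010 FPKM, SD, n = 3, with a two-sided exact permutation p = 0.1, the smallest possible). The share of all genes tested with this separation was not counted, so it is not read as particular to En2. By edgeR's quasi-likelihood test across all genes, with Benjamini-Hochberg adjustment, the log2 fold change of En2 from 5.5DDC to 6.5DDC was -0.17 (SE 0.23, adjusted p = 0.704), and -0.09 without replicate 1 at 5.5DDC. Over the whole span it was 0.05, with a 95% interval of -0.46 to 0.57 (edgeR adjusted p = 0.896). Without replicate 2 at 4.5DDC the sign of this last value turned, to -0.05.

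Gbx2, a homeodomain factor of the anterior hindbrain that sets the posterior limit of Otx2, lies at chr1:89927956-89931179 (GRCm38, minus strand). Gbx2 alone of the 7 genes differed between replicate numbers past the threshold, so its promoter is shown, from 250 bases before to 50 after the start site (RefSeq, GRCm38.p6, chr1:89931127-89931426, minus strand, 5′ to 3′), with an E box (CACGTG) in capitals:
Gbx2: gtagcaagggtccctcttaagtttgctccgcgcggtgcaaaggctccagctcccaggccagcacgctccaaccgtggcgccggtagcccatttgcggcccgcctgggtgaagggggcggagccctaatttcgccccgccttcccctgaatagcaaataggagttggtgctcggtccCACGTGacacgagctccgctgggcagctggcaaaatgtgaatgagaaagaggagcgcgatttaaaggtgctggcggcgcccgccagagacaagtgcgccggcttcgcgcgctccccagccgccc
The E box begins at position -74 from the start site. These letters, searched on both strands, were present in 7.15% of 32851 promoter windows of the same length.

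At 4.5DDC Gbx2 measured 0.156, 0.565 and 0.488 FPKM in replicates 1, 2 and 3, from 15, 34 and 38 counts. At 5.5DDC it measured 0.0731, 0.453 and 0.543 FPKM, from 10, 28 and 32 counts. At 6.5DDC it measured 0, 0.281 and 0.351 FPKM, from 0, 25 and 30 counts. Replicate 1 was the lowest library at every time point, whereas replicates 2 and 3 lay close together, and because of this split the 3 time points overlapped. Of the genes tested, 11.8% also had replicate 1 below both other libraries at all 3 time points in FPKM. The CPM of replicates 2 and 3 pooled (their summed counts over their summed depth) was 3.34-fold that of replicate 1 at 4.5DDC (95% counting interval 1.90 to 6.27) and 6.76-fold at 5.5DDC (3.43 to 14.8). At 6.5DDC, where replicate 1 had no count, their mean CPM was at least 7.29-fold, taking 3 counts in that library as the floor.

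In edgeR's fit of time point and replicate number, Gbx2 was lower in replicate 1 than in the mean of replicates 2 and 3 by a log2 fold change of -2.61 (SE 0.50, 95% interval -3.74 to -1.48, edgeR adjusted p = 0.0109), with the same direction at 3 of 3 time points. It was 1 of 4 genes called in this contrast, beside 9.70% of all genes tested, and this call was towards lower levels in replicate 1, as for 5.45% of all genes. At an unadjusted p under 0.05, Cdx2 was the only other one of the 4. The call was lost without replicate 1 at 5.5DDC (log2 fold change -2.51, edgeR adjusted p = 0.0625), and over all alternatives the adjusted p ranged from 4.95e-05 to 0.0625. In bulk RNA, fewer cells expressing a gene and less RNA per cell cannot be told apart.

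From 4.5DDC to 6.5DDC the fitted log2 fold change of Gbx2 was -0.92 (SE 0.98, edgeR adjusted p = 0.537), and the difference in its log2 CPM within replicates 1, 2 and 3 was -2.88, -0.91 and -0.57. With replicates 2 and 3 alone the fold change was -0.78 (SE 0.30, edgeR adjusted p = 0.0841). Neither passed the threshold. Single libraries moved the value of all 9 libraries between -0.37 (without replicate 1 at 6.5DDC) and -1.42 (without replicate 3 at 6.5DDC). The sign of its 4.5DDC to 5.5DDC value, -0.26, turned to 0.02 without replicate 2 at 4.5DDC and to 0.28 without replicate 1 at 5.5DDC. Of the exonic bases of Gbx2, 43.5% are shared with D130058E05Rik, a transcript of the opposite strand. This transcript had counts of 5, 10 and 2 at 4.5DDC, 3, 11 and 4 at 5.5DDC, and 0, 1 and 3 at 6.5DDC. It was highest in replicate 2 at 4.5DDC and 5.5DDC and near 0 at 6.5DDC. Reads of the pair cannot be told apart unless the counting used strand, and its part in the Gbx2 values was not tested.

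Egr2, a zinc finger factor of a pair of rhombomeres that is also an immediate early gene switched on by growth factor signals and a regulator of Schwann cells, lies at chr10:67535475-67542188 (GRCm38, plus strand). Its pattern over the libraries was closest to that of the immediate early gene Fos, so its promoter is shown (RefSeq, GRCm38.p6, chr10:67537619-67537918, plus strand, 5′ to 3′, the first of 3 among its 5 windows that hold both a CArG box and TGACG). Capitals mark the CArG box, the element bound by serum response factor, together with TGACG (also as CGTCA), the core of the cAMP response element, and a CCAAT box (as ATTGG):
Egr2: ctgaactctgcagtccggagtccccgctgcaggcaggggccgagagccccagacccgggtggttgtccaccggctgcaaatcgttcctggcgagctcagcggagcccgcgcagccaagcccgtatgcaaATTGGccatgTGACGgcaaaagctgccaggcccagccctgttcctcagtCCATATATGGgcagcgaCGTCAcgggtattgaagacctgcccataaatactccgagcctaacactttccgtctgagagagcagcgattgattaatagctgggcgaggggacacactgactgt
The CArG box begins at position -72, the TGACG letters at -111, CGTCA at -55 and ATTGG at -121 from the start site, with no overlap between them. Both strands were searched, and a CArG box was present in 1.63% of the 32851 windows, TGACG in 20.8% and CCAAT in 37.4%. Of 11 immediate early genes listed, 7 had a window in the search, and 0 of these held a CArG box there. The remaining listed genes and sites outside the windows were not searched. This count therefore does not set Egr2 apart from immediate early genes as a group.

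At 4.5DDC Egr2 measured 1.74, 0.0545 and 1.44 FPKM in replicates 1, 2 and 3, from 55, 2 and 77 counts. At 5.5DDC it measured 4.14, 0.740 and 0.909 FPKM, from 172, 24 and 22 counts. At 6.5DDC it measured 1.53, 0.829 and 1.25 FPKM, from 51, 49 and 52 counts. The lowest library was replicate 2 at 4.5DDC and the highest was replicate 1 at 5.5DDC, and the 3 time points overlapped. In FPKM replicate 1 was the highest library at all 3 time points, as it was for 10.1% of the genes tested, but in CPM replicate 3 exceeded replicate 1 at 4.5DDC (5.35 against 3.09 CPM). For Egr2, FPKM divided by CPM varied from 0.270 to 0.615 between libraries, whereas for En2 it stayed between 0.156 and 0.160. The CPM of replicate 1 was 3.32-fold that of replicates 2 and 3 pooled at 5.5DDC, but 1.0-fold at 4.5DDC and 1.27-fold at 6.5DDC, where the counting intervals include equal levels.

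Over time, the fitted log2 fold changes of Egr2 were 0.29 in the first interval, 4.5DDC to 5.5DDC (SE 0.80, edgeR adjusted p = 0.899), -0.08 in the second, 5.5DDC to 6.5DDC (SE 0.80, edgeR adjusted p = 0.970), and 0.21 over the whole span (SE 0.81, edgeR adjusted p = 0.877). The direction of each depended on single libraries. Without replicate 2 at 4.5DDC the first value became -0.26 and the third -0.33, and without replicate 1 at 5.5DDC the first became -0.57 and the second 0.77. With replicates 2 and 3 alone the first was -0.57 and the second 0.61. The second was also 0.02 without replicate 2 at 6.5DDC and 0.10 when blocked on replicate number. In replicate 1 against replicates 2 and 3, Egr2 had a log2 fold change of 0.86 (SE 0.56, edgeR adjusted p = 0.467). Over the libraries left out it ranged from 0.40 without replicate 1 at 5.5DDC to 1.52 without replicate 3 at 4.5DDC (edgeR adjusted p = 0.921 and 0.0744).

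In replicate 2 at 4.5DDC, Egr2 stood at 4.34% of its CPM in the other 2 libraries of that time point, pooled (95% counting interval 0.52% to 16.0%). The immediate early factors Fosb and Fos stood at 3.49% and 13% in the same library. Other immediate early genes did not share this low level, with Egr1 at 51.1%, Arc at 55.0%, Jun at 116% and Ier2 at 153%. Of 10 immediate early genes with counts there (11 listed), 6 lay below the pooled CPM of the other 2 libraries, 2 of them below 50%, and the median was 87.2%. Summed FPKM of the 11 genes was 70.0, 48.5 and 58.2 at 4.5DDC, 143.6, 74.1 and 74.6 at 5.5DDC, and 73.3, 88.9 and 104.2 at 6.5DDC, and Egr1 had the highest mean. The library with the highest Egr2 level also had the highest sum. Of 9 tested, 1 rose from 4.5DDC to 6.5DDC (Egr1, log2 fold change 1.62, SE 0.35, edgeR adjusted p = 0.0129) and 0 fell by edgeR, beside 18.7% of all genes called (2 of the 9 at an unadjusted p under 0.05; DESeq2 called 2 higher and 0 lower), with a median of 0.03 beside 0.00 over all genes. Between replicate numbers, 1 was higher in replicate 1 (Arc, log2 fold change 1.11, edgeR adjusted p = 0.0135), beside 9.70% of all genes called. The part of these genes in the Egr2 values was not tested. Schwann cell and neural crest markers, the other setting in which Egr2 is well known, gave 1 fall among 6 tested of 10 (Ets1, log2 fold change -0.61, edgeR adjusted p = 0.0398), near the share of 18.7% over all genes. Between replicate numbers 0 of the 6 were called by edgeR, 3 had an unadjusted p under 0.05, and DESeq2 called 1. Their sum stayed between 11.3 and 16.4 FPKM with Pmp22 the most abundant, and the defining marker Sox10 had 0 counts in 7 libraries and 1 and 2 in the others.

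Cdx1, a caudal homeodomain factor that responds to RA and Wnt signals in the posterior embryo, had 0 counts and 0 FPKM in all 9 libraries. The exact 95% interval of a count of 0 reaches 0.145 CPM in the deepest library and 0.333 CPM in the shallowest. No test was possible for it.

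Cdx2, a caudal homeodomain factor of the posterior neural tube, the trophectoderm and the intestine, lies at chr5:147300805-147307270 (GRCm38, minus strand). Cdx2 alone of the 7 genes had all of its 6.5DDC libraries above its 4.5DDC libraries, so its promoter is shown (RefSeq, GRCm38.p6, chr5:147307200-147307499, minus strand, 5′ to 3′), with a CCAAT box (as ATTGG) in capitals:
Cdx2: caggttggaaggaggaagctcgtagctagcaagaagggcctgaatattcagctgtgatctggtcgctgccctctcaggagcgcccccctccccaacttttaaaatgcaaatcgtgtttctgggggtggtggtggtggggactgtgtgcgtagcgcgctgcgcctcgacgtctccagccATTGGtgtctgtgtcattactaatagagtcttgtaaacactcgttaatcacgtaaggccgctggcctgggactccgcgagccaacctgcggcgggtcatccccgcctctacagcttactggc
The letters begin at position -72 from the start site. In the 3 windows printed, AGGTCA, the motif to which RA receptors bind in pairs, was not found on either strand, and it was present in 16.3% of all windows.

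At 4.5DDC Cdx2 measured 0.0612, 0.391 and 0.327 FPKM in replicates 1, 2 and 3, from 3, 12 and 13 counts. At 5.5DDC it measured 0.0573, 0.413 and 0.632 FPKM, from 4, 13 and 19 counts. At 6.5DDC it measured 0.492, 0.419 and 0.781 FPKM, from 17, 19 and 34 counts. Replicate 1 was at or near the floor at 4.5DDC and 5.5DDC and lay between the other libraries at 6.5DDC. All 3 libraries at 6.5DDC exceeded all 3 at 4.5DDC (0.564 ± 0.192 against 0.260 ± 0.175 FPKM, SD, n = 3; two-sided exact permutation p = 0.1, the smallest possible), as did those of 17.9% of the genes tested. Over the whole span Cdx2 had a fitted log2 fold change of 1.14 (SE 0.80, 95% interval -0.66 to 2.93, edgeR adjusted p = 0.339), and of 0.62 without replicate 1 at 4.5DDC. Within replicates 1, 2 and 3, log2 CPM was 2.35, 0.13 and 1.03 higher at 6.5DDC than at 4.5DDC, and the value of replicate 1 starts from 3 counts, at the floor. With replicates 2 and 3 alone the fold change was 0.69 (SE 0.44, edgeR adjusted p = 0.265). In the first interval it had a value of 0.41 (SE 0.84, edgeR adjusted p = 0.857), and its sign turned without replicate 1 at 4.5DDC (-0.11) and without replicate 3 at 5.5DDC (-0.29).

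Between replicate numbers, the CPM of Cdx2 in replicates 2 and 3 pooled was 5.79-fold that of replicate 1 at 4.5DDC (95% counting interval 1.77 to 30.0) and 9.01-fold at 5.5DDC (3.2 to 35.1). At 6.5DDC the ratio was 1.24 (0.705 to 2.28), an interval that includes equal levels. The contrast over all 3 time points gave a log2 fold change of -1.56 (SE 0.56, edgeR adjusted p = 0.129). It was -0.97 without replicate 1 at 5.5DDC (edgeR adjusted p = 0.542). Without replicate 1 at 6.5DDC it passed the threshold, at -2.85 (edgeR adjusted p = 0.0111), within a range of 0.0111 to 0.542 over all alternatives.

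Considered over time, 0 of the 4 genes tested were called by edgeR in any interval, and 0 had an unadjusted p under 0.05. Of all genes tested, 0.0746% were called in the first interval (11 genes), 0.224% in the second (33 genes) and 18.7% from 4.5DDC to 6.5DDC (2763 genes, 1358 higher and 1405 lower at 6.5DDC). DESeq2, limma voom and limma on log2 FPKM also called 0 of them in every interval. In the shorter intervals few genes of any kind were called, so that 0 of 4 there lies near the background. A block on replicate number gave 212 genes called in the first interval and 195 in the second, with 0 of the 4 among them. Leaving out 1 library moved these counts of all genes widely. The first interval gave 1 gene without replicate 3 at 4.5DDC or at 5.5DDC, 3 without replicate 2 at 4.5DDC, 5 without replicate 2 at 6.5DDC, 7 without replicate 2 at 5.5DDC and 28 without replicate 1 at 6.5DDC. The second gave 0 without replicate 2 or replicate 3 at 5.5DDC or at 6.5DDC, 1 and 13 without replicates 1 and 3 at 4.5DDC, 4 without replicate 1 at 5.5DDC and 196 without replicate 1 at 6.5DDC. The whole span gave 1152 genes without replicate 2 at 4.5DDC and 1125 without replicate 2 at 6.5DDC. The replicate contrast, with 1430 genes, gave 808 without replicate 1 at 4.5DDC, and 645, 897 and 952 without replicates 1, 2 and 3 at 5.5DDC.

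**Figure D2:**
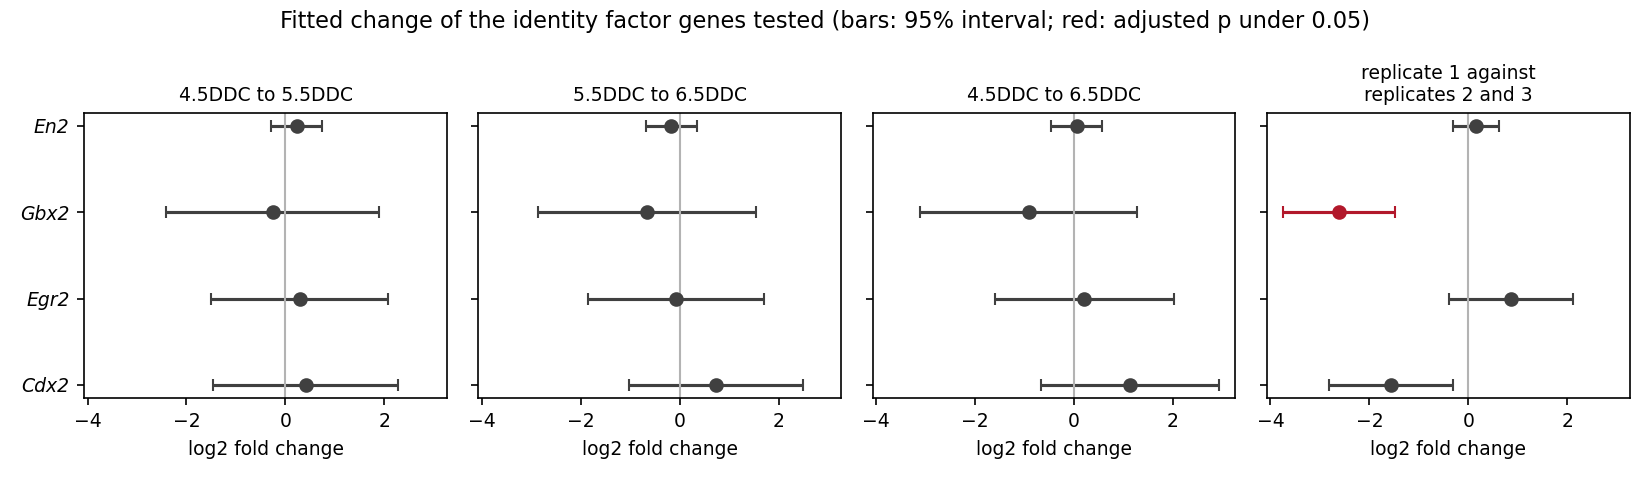
Fitted log2 fold change (horizontal axis) of the 4 genes tested in the 3 time intervals and in replicate 1 against replicates 2 and 3, with 95% intervals as bars. All intervals over time include 0, and Gbx2 in the replicate contrast, at -2.61, is the only value past the adjusted threshold (red).

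The spread of the 4 genes tested differed in kind. Beside 0.15 for En2, the SD of log2 CPM over the 9 libraries was 1.53 for Gbx2, 1.31 for Egr2 and 1.06 for Cdx2, and 99%, 97.7% and 94.8% of the genes tested had a lower SD than these 3. Likeness of pattern was measured as the root mean square difference between log2 CPM profiles over the 9 libraries, each centred on its own mean. Between the 4 genes this ranged from 1.09 (En2 and Cdx2) to 2.28 (Gbx2 and Egr2), so none of them followed another closely. For En2 the closest genes in the whole table were Trim56 (0.05), an innate immune ubiquitin ligase, the deubiquitinase homologue Usp54 (0.07) and the phosphatase Ptpn13 (0.07), all of which were also nearly level over the libraries.

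The genes closest to Gbx2 were the axonal adhesion protein gene Cntn2 (0.34), the nicotinic receptor subunit gene Chrnb4 (0.37) and the transporter gene Slco4a1 (0.46). Cntn2 measured 9.58, 40.1 and 22.8 FPKM at 4.5DDC, 5.96, 32.7 and 32.2 at 5.5DDC, and 2.48, 15.0 and 21.2 at 6.5DDC. Since these genes were chosen for their likeness to Gbx2, their low levels in replicate 1 are a description and were not counted as further evidence. The genes closest to Egr2 were Fos (0.46), the vesicle protein gene Vamp5 (0.46) and Fosb (0.51), each lowest in replicate 2 at 4.5DDC. The gene closest to Cdx2 was the phosphatase subunit gene Ppp2r2c (0.30), and AU018091 (0.34) was also close.

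**Figure D3:**
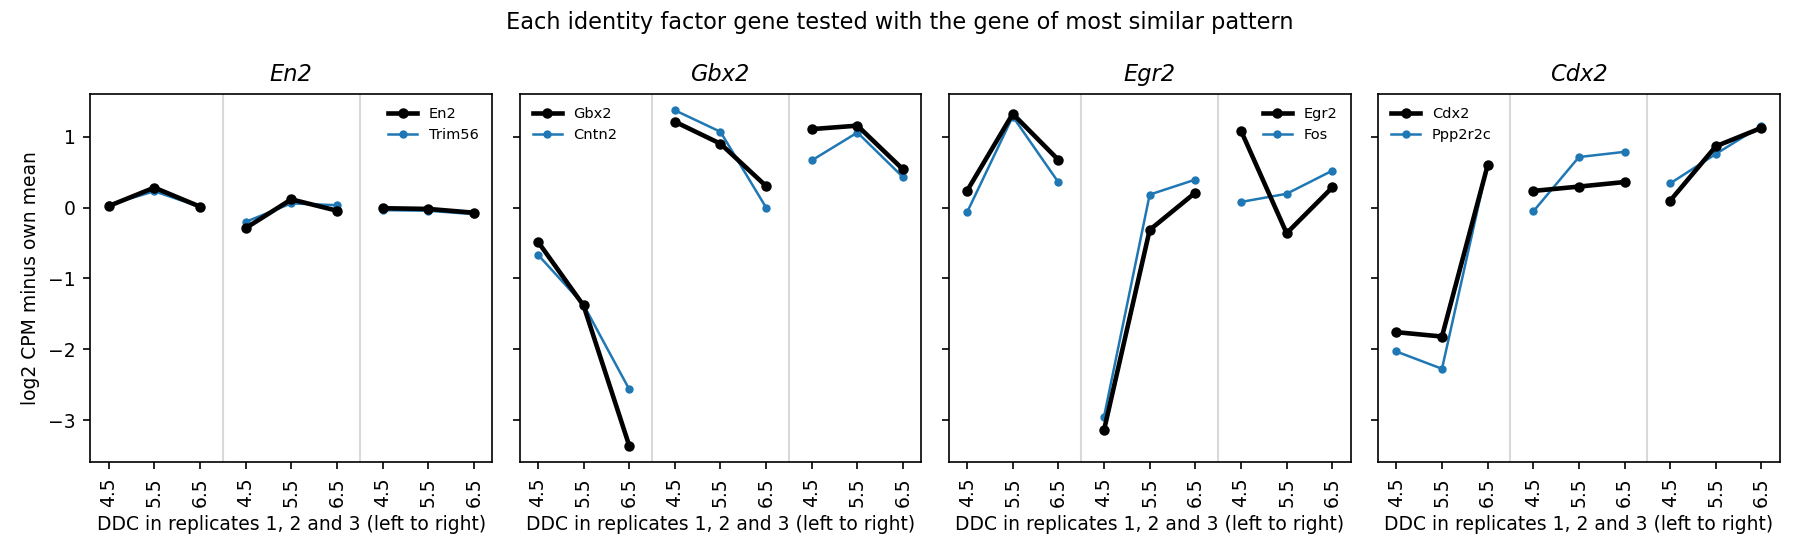
Log2 CPM minus the gene's own mean (vertical axis) in the 9 libraries, ordered by replicate number and then by DDC (horizontal axis), for En2, Gbx2, Egr2 and Cdx2 (black) and the gene closest to each (blue). The profile of En2 is nearly level (SD 0.15), Gbx2 and Cntn2 are low in replicate 1, and Egr2 and Fos drop in replicate 2 at 4.5DDC.

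Other genes of each region placed these levels in context. Counts called in the lists below are to be read against 18.7% of all genes called over the whole span and 9.70% between replicate numbers. The most abundant gene of any list is the one with the highest mean FPKM over the 9 libraries, which need not lead in every library. Among 18 forebrain genes, 3 passed the filter, and Fezf1 and Fezf2, factors of the anterior forebrain, had 0 counts in every library. Sp8, a zinc finger factor of the anterior neural ridge, had a log2 fold change of -2.18 over the whole span (SE 0.87, edgeR adjusted p = 0.106) and was lower in replicate 1 (-2.63, edgeR adjusted p = 0.00138).

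Of 13 genes of the midbrain and the midbrain-hindbrain border, 3 passed the filter, and 0 were called from 4.5DDC to 6.5DDC by edgeR (median -0.59), with 0 at an unadjusted p under 0.05 and 0 by DESeq2. The most abundant was Lmx1b, a factor of the isthmus and of serotonergic neurons, with a log2 fold change of 0.52 (SE 0.38, edgeR adjusted p = 0.353). It was the only listed gene called between replicate numbers (0.82 higher in replicate 1, edgeR adjusted p = 0.0243). Fgf18, a growth factor of the border, had a log2 fold change of -1.47 over time (SE 0.67, edgeR adjusted p = 0.148). Counts of Fgf8, the organizer signal of the border, were 1 in replicate 1 at 4.5DDC and 0 in the other 8 libraries, and Pitx3, a factor of midbrain dopamine neurons, had none. En1, the closest relative of En2, had between 0 and 11 counts in a library.

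Rhombomere genes were the most widely measured, with 23 of 27 past the filter (28 listed) and a summed level between 260.2 and 438.7 FPKM. From 4.5DDC to 6.5DDC 1 rose and 1 fell, with a median of 0.09. Efnb3, a membrane ligand of Eph receptors and the most abundant gene of the list, rose by a log2 fold change of 1.45 (SE 0.43, edgeR adjusted p = 0.0440). Epha4, an Eph receptor of the rhombomeres in which Egr2 acts, fell by 1.01 on the log2 scale (SE 0.24, edgeR adjusted p = 0.0189). The receptor gene Ephb2 had a log2 fold change of 0.09 (SE 0.15, edgeR adjusted p = 0.718). Between replicate numbers 3 were higher and 10 lower in replicate 1, beside 9.70% of all genes called and 5.45% lower, with a median of -0.36 beside 0.01 over all genes. Efnb3 was among the 3 higher (log2 fold change 1.05, edgeR adjusted p = 0.00247). Without Efnb3, the summed level in replicates 1, 2 and 3 was 179.8, 243.2 and 240.5 FPKM at 4.5DDC. It was 183.9, 252.9 and 270.3 FPKM at 5.5DDC, and 180.3, 251 and 290.2 FPKM at 6.5DDC. Replicate 1 was thus lowest at each time point without Efnb3, but highest at 6.5DDC with it.

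Of 24 genes of spinal cord and axial progenitors, 14 passed the filter. By edgeR 0 were called from 4.5DDC to 6.5DDC, with a median of 1.30, while 2 had an unadjusted p under 0.05 and DESeq2 called 1. Hoxb8, a trunk Hox gene and the most abundant of the list, had a log2 fold change of 1.09 (SE 0.50, edgeR adjusted p = 0.147), and Gdf11, a ligand that times trunk to tail identity, had a value of 0.28 (SE 0.20, edgeR adjusted p = 0.330). In replicate 1, 7 genes were lower and 1 higher than in replicates 2 and 3, with a median of -1.87, and Hoxb8 was among the lower (-1.20, edgeR adjusted p = 0.0175). The summed level was 30.1, 61.7 and 45.7 FPKM in replicates 1, 2 and 3 at 4.5DDC, 33.1, 92.1 and 101.5 at 5.5DDC, and 31.8, 115.8 and 147.3 at 6.5DDC. Replicate 1 was the lowest library at each time point, as for Gbx2, and its sum differed little between time points. Cdx4, the third caudal gene, had at most 2 counts in a library. In the 2 shorter intervals edgeR called 0 genes of the 4 region lists and the 8 marker lists described next, with 13 at an unadjusted p under 0.05 in each of them, where DESeq2 called 3 higher and 2 lower in the first and 3 higher and 1 lower in the second.

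Markers of other cells were read beside the replicate contrast, since replicate 1 set Gbx2 apart. Neuron markers, expressed by cells that have left the progenitor state, summed to 166.6, 317.2 and 256.4 FPKM at 4.5DDC, 158.9, 400.7 and 422 at 5.5DDC, and 252.8, 569.7 and 619.6 at 6.5DDC. Replicate 1 was lowest at each time point, as for Gbx2. All 8 in the tables were tested (9 listed), with 4 lower in replicate 1 (5.45% of all genes; median -0.79), and 3 rises and 1 fall from 4.5DDC to 6.5DDC (18.7% of all genes called; median 1.33). Stmn2 was the most abundant, and Fev, a defining factor of serotonergic neurons, had counts of 0, 1 and 2 at 4.5DDC, 5, 6 and 6 at 5.5DDC and 27, 32 and 69 at 6.5DDC, and was 1 of the 3 that rose (log2 fold change 5.14, edgeR adjusted p = 0.00311). The part of neuron content in the Gbx2 difference was not tested.

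Endoderm and intestine markers, of which 4 of 12 were tested, summed to 4.84, 2.74 and 1.38 FPKM at 4.5DDC, 4.79, 1.79 and 2.5 at 5.5DDC, and 15.9, 3.25 and 2.80 at 6.5DDC. The sum was highest in replicate 1 at each time point, and highest of all in replicate 1 at 6.5DDC, the library in which the Cdx2 count of replicate 1 was 17. Gata4 was the most abundant, and 3 genes were higher in replicate 1 (median 1.93). Over the whole span 0 were called by edgeR (median 1.42), with 0 at an unadjusted p under 0.05 and 0 by DESeq2. Of the defining intestinal markers, Cdh17 had 1 count in all, Isx had 16 counts in replicate 1 at 6.5DDC and at most 5 elsewhere, and Vil1, which was tested, had 27 counts in that library, with a log2 fold change of -0.18 over the whole span and 0.13 in replicate 1, neither called by edgeR. The part of such cells in the Cdx2 values was not tested.

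Trophectoderm markers, another setting of Cdx2, had 5 of 8 genes tested. They summed to 75.5, 53.0 and 48.7 FPKM at 4.5DDC, 63.7, 48.6 and 51.8 at 5.5DDC, and 53.0, 40.5 and 45.0 at 6.5DDC. Krt18, a keratin of simple epithelia, was the most abundant, the sum was lowest at 6.5DDC for each replicate number, and the defining factors Eomes and Elf5 had at most 6 and 2 counts. Tfap2c had counts of 14, 52 and 92 at 4.5DDC, 16, 98 and 83 at 5.5DDC, and 79, 104 and 67 at 6.5DDC. In FPKM it was lowest in replicate 1 at 4.5DDC and 5.5DDC and between the other libraries at 6.5DDC, as was Cdx2. Its log2 fold change in replicate 1 was -1.675 (edgeR adjusted p = 0.192). Krt18 was instead highest in replicate 1 at all 3 time points. The part of trophectoderm cells in the Cdx2 values was not tested. Over the whole span 1 gene rose (median -0.40). This was Gata3, also a factor of serotonergic neurons (log2 fold change 2.46, edgeR adjusted p = 0.0189). Between replicate numbers 1 was higher and 1 lower in replicate 1 (median -0.68).

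Retinal and choroid plexus markers, a setting of Otx2, summed to 52.1, 16.8 and 20.4 FPKM at 4.5DDC, 89.3, 17.2 and 14.1 at 5.5DDC, and 73.9, 20.3 and 15.6 at 6.5DDC. Replicate 1 was the highest at each time point, led by the folate receptor gene Folr1, which is also expressed outside these tissues. Of the 89.3 FPKM, 32.1 came from Mitf, a value that stood far from its 205 counts. Of 4 genes tested among 9, 1 was higher in replicate 1 (median 0.85), and 0 were called from 4.5DDC to 6.5DDC by edgeR (median 0.34), with 0 at an unadjusted p under 0.05 and 0 by DESeq2. The defining photoreceptor and pigment genes Crx and Tyr had 0 counts in every library. Pluripotent cell markers, of which 3 of 10 were tested, summed to between 2.83 and 6.93 FPKM with Klf4 the most abundant, and Pou5f1 had at most 2 counts in a library. Among them 0 were called from 4.5DDC to 6.5DDC by edgeR (median -0.96), with 1 at an unadjusted p under 0.05 and 1 by DESeq2, and 1 was higher in replicate 1 (median 0.82).

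Neural progenitor markers, which the sort for prominin-1 selects, summed to between 507.2 and 606.2 FPKM in all libraries, with no gene of the 12 at 0 counts. Nes had the highest mean FPKM, but Prom1, the gene of prominin-1, lay above it in all 3 libraries at 6.5DDC (207.4, 186.8 and 153.5 against 158, 165 and 138.1 FPKM). All 12 were tested, with 1 rise and 3 falls from 4.5DDC to 6.5DDC (median -0.54), and 3 lower in replicate 1 (median -0.16). The labelled progenitor type was therefore represented at similar summed levels at all 3 time points, while the levels of Gbx2, Cdx2 and the spinal cord genes differed between libraries within them.

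**Figure D4:**
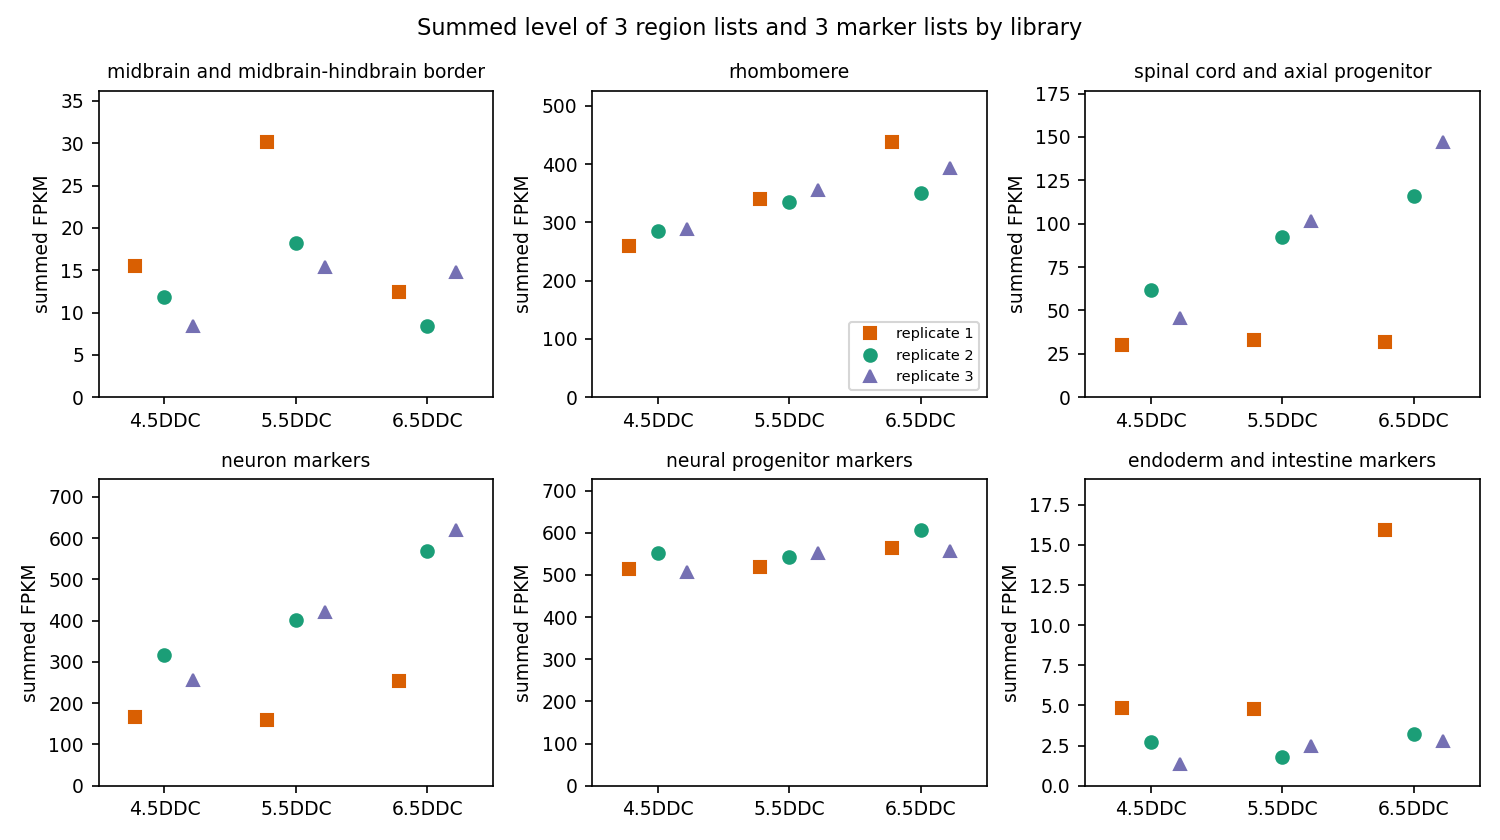
Summed FPKM (vertical axis) by time point (horizontal axis) of the genes of 3 regions and of neuron, neural progenitor, and endoderm and intestine markers, with 1 point per library. Replicate 1 is the lowest library for spinal cord genes and neuron markers at each time point, and the endoderm sum reaches 15.9 FPKM in replicate 1 at 6.5DDC. The rhombomere sum includes Efnb3, the most abundant gene of that list.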

How the data were processed

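RNA from prominin-1 sorted NSCs was measured in 9 libraries, 3 per time point, grouped by the time points in the library titles. The authors mapped single-end reads to GRCm38 with TopHat 2.0.4 and counted them per gene with HTSeq 0.6.1, and the deposited values are estimated counts, of which 98 symbols hold values that are not whole. The authors computed FPKM with Cufflinks 2.1.1. The annotation release and the strand setting are not given in the sources used here. The deposited log2 values from voom were not used.

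Expected counts were rounded, although the design had assumed whole counts. edgeR 4.0.16 (quasi-likelihood test, TMM scaling with factors of 0.951 to 1.04, filterByExpr on the time point, Benjamini-Hochberg adjustment over 14742 genes, adjusted p under 0.05) was run on all 9 libraries, with time point as the factor, and with the replicate number added for the contrast of replicate 1 against the mean of replicates 2 and 3. The scripts were tested on simulated data. Standard errors are the size of the log2 fold change divided by the square root of F. Single FPKM values were compared by two-sided exact permutation (20 arrangements). Counting intervals are exact, at 95%, and the floor is 3 counts per library, with depth between 11066568 and 25506193 counts.

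Alternatives were RLE scaling, library totals, other filters, limma 3.58.1 with voom or on log2 FPKM with a pseudocount of 1 or 0.1, DESeq2 1.42.0, the replicate number as a block, only the libraries of 2 time points, each library left out, and replicates 2 and 3 alone, the last chosen after seeing the data. Libraries of 1 number deviated together between adjacent time points (r = 0.743, 0.386 and 0.452 in the first interval, 0.454, 0.367 and 0.197 in the second), which meets the rule set for pairs there, but not over the whole span (0.383, -0.0396 and -0.215). Replicates 2 and 3 also deviated with each other across numbers (0.291 and 0.39 in the first interval, 0.225 and 0.405 in the second), so these values do not separate pairing by number from replicate 1 standing apart. The main fits over time and the permutation tests used no pairs, and the block was run beside them as an alternative.

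Besides the 7 genes, those named were, from each of 4 region lists (forebrain, midbrain and midbrain-hindbrain border, rhombomere, spinal cord and axial progenitor), the 2 with the highest mean FPKM and those past the threshold from 4.5DDC to 6.5DDC, and the 3 genes of most similar pattern to each gene tested. Not every gene that meets these rules is named. Pattern was compared on log2 CPM with a prior count of 2. The 8 marker lists were pluripotent cell, endoderm and intestine, trophectoderm, retinal and choroid plexus, neural crest and Schwann cell, immediate early, neural progenitor and neuron genes. Marker genes named outside this rule were chosen after their values were seen. The 7 genes, the lists and the replicate contrast were chosen with earlier results of these data known. Positions are from GENCODE on GRCm38. Promoter windows are from RefSeq (GRCm38.p6) and were matched by symbol for Otx2, Gbx2, Egr2 and Cdx2, while Otx1 and En2 had no entry. Windows on chromosome 18, where Cdx1 lies, were left out for the 7 genes and for the immediate early genes. The shares over all windows include that chromosome. Motifs searched on both strands were the CArG box, in any of its forms, the cAMP response element (TGACGTCA) and its core (TGACG, which the full element contains), the E box (CACGTG), the CCAAT box, the half-site of RA receptors (AGGTCA) and the TATA box (TATAAA), a set chosen after some windows had been seen. The Egr2 window printed was also chosen by its motifs. Figures were drawn with matplotlib 3.10.9.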

Additional observations from a re-analysis of the deposited data

How the results depend on the processing

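None of the 4 genes tested was called over time under any of the 20 alternatives for each interval. With an unadjusted p under 0.05 from 4.5DDC to 6.5DDC were Gbx2 with the replicate number as a block (log2 fold change -1.23, edgeR adjusted p = 0.117) and with replicates 2 and 3 alone (-0.78, edgeR adjusted p = 0.0841), and Otx1 with no filter beyond a count above 0 (-3.96, edgeR adjusted p = 0.198). The lower level of Gbx2 in replicate 1 kept its call under 16 of 17 alternatives. Leaving out each library gave between 0 and 2 genes called in that contrast. The log2 fold change turned sign in the following cases, in each of which the cause was not tested beyond the libraries left out. Gbx2 from 4.5DDC to 5.5DDC was 0.02 and 0.28 without replicate 2 at 4.5DDC and without replicate 1 at 5.5DDC (range -0.72 to 0.28 over the libraries left out). Egr2 over the same interval was -0.26 and -0.57 without those libraries and -0.57 with replicates 2 and 3 alone (range -0.57 to 1.10). Cdx2 was -0.11 without replicate 1 at 4.5DDC and -0.29 without replicate 3 at 5.5DDC (range -0.29 to 1.003). Egr2 from 5.5DDC to 6.5DDC was 0.10 with the replicate block, 0.61 with replicates 2 and 3 alone, 0.77 without replicate 1 at 5.5DDC and 0.02 without replicate 2 at 6.5DDC (range -0.36 to 0.77). From 4.5DDC to 6.5DDC, without replicate 2 at 4.5DDC, Egr2 was -0.33 (range -0.33 to 1.03) and En2 was -0.045 (range -0.045 to 0.11).

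Counts of all genes called moved more. From 4.5DDC to 5.5DDC (11 genes) they were 25 with no filter, 495 with DESeq2, 7 with limma on log2(FPKM + 1), 212 with the replicate block, 1 with the 6 libraries of the 2 time points, 485 with replicates 2 and 3 alone, and 1 to 28 when each library was left out. From 5.5DDC to 6.5DDC (33 genes) they were 55 with library totals only, 78 with no filter, 662 with DESeq2, 12 and 0 with limma on log2(FPKM + 1) and log2(FPKM + 0.1), 195 with the replicate block, 0 with 6 libraries, 728 with replicates 2 and 3 alone, and 0 to 196 with each library left out. From 4.5DDC to 6.5DDC (2763 genes) they were 4586 with replicates 2 and 3 alone and 1125 to 3132 with each library left out. Between replicate numbers (1430 genes) they were 787 and 890 with limma on log2(FPKM + 1) and log2(FPKM + 0.1), and 645 to 1929 with each library left out. The cause was not tested. The replicate block changed no call of the 4 genes. Depth limits what can be said of Otx1 and Otx2, which had at most 3 and 4 counts in a library, of Cdx1, which had none, and of Cdx2 in replicate 1.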

Other observations

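Nkx2-1, a homeodomain factor of the ventral forebrain, and T, the mesoderm factor brachyury, were chosen after their values were seen. Nkx2-1 had counts of 0, 28 and 25 in replicates 1, 2 and 3 at 4.5DDC, 0, 4 and 7 at 5.5DDC, and 0, 4 and 2 at 6.5DDC. It was at 0 in replicate 1 at all 3 time points and did not pass the filter on low counts. T had counts of 46, 3 and 3 at 4.5DDC, 34, 1 and 2 at 5.5DDC, and 46, 1 and 1 at 6.5DDC. It was the listed spinal cord and axial progenitor gene that was higher in replicate 1 (log2 fold change 4.12, SE 0.48, edgeR adjusted p = 0.00142).

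Some FPKM values stood far from the counts behind them. Mitf, a pigment cell factor, measured 32.1 FPKM in replicate 1 at 5.5DDC from 205 counts and 1.40 FPKM in replicate 1 at 6.5DDC from 108 counts. Pax5, a factor of the midbrain-hindbrain border, measured 1.96 FPKM in replicate 3 at 4.5DDC from 2 counts.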
